A study of Mus musculus with 8 samples.

Results

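Ccl3, Ccl4, Ccl5 and Xcl1 are 4 chemokine genes that activated T cells transcribe. They were taken by name from a table of normalised read counts, where they made up 4 of 13341 gene symbols, and all 4 passed the filter on low levels. The mice were of the MRL/lpr strain and 14 weeks old, and the RNA came from their T cells. This strain carries the lpr mutation of the death receptor gene Fas and develops a lupus-like autoimmune disease with inflammation of the kidney. CD44hi CD4+ and CD44hi CD8+ T cells were sorted from kidney and from spleen, high CD44 being a mark of cells that have met antigen. This gave 4 groups of 2 libraries, 8 in all: kidney CD4+, kidney CD8+, spleen CD4+ and spleen CD8+ T cells. Every group carries the lpr mutation, so no comparison here sets diseased against healthy mice. The labels do not say whether mice were pooled or whether replicates came from separate mice, so p-values measure only the spread between these libraries, which may be technical.

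Chemokines are small secreted proteins that direct the movement of cells by binding G protein-coupled receptors. Ccl3 (MIP-1 alpha) and Ccl4 (MIP-1 beta) are closely related and attract monocytes, macrophages and T cells. Ccl5 (RANTES) attracts monocytes, eosinophils and T cells and is kept as a stored message by memory CD8+ T cells. Xcl1 (lymphotactin), of the C family, binds Xcr1 on the dendritic cells that cross-present antigen to CD8+ T cells. T cells switch on Ccl3, Ccl4 and Xcl1 soon after stimulation through the T cell receptor, whereas Ccl5 is known as a late and lasting transcript of T cells.

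Ccl3, Ccl4 and Ccl5 lie in the chemokine cluster of mouse chromosome 11, and Xcl1 lies on chromosome 1 (build mm9, GENCODE vM1). Ccl5 (ENSMUSG00000035042.2) spans chr11:83339280-83344020 on the minus strand in 2 exons. Ccl3 (ENSMUSG00000000982.5) spans chr11:83461346-83462857 on the minus strand in 3 exons. Ccl4 (ENSMUSG00000018930.3) spans chr11:83476086-83478185 on the plus strand in 3 exons, its start 14740 bases from that of Ccl3 and 136806 from that of Ccl5. Xcl1 (ENSMUSG00000026573.7) spans chr1:166861775-166865658 on the minus strand in 3 exons. No 2 of the 3 chromosome 11 genes overlap in this annotation.

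The promoters of Ccl3 and Xcl1 are printed because only these 2 of the 4 genes had an entry among the RefSeq promoters used. Their levels across the libraries played no part in the choice. Each sequence is the 250 bases before the annotated start of the gene, from RefSeq on build GRCm38.p6, minus strand, 5′ to 3′, at chr11:83649379-83649628 for Ccl3 and chr1:164935523-164935772 for Xcl1. Capitals mark matches to the letters searched.
Ccl3: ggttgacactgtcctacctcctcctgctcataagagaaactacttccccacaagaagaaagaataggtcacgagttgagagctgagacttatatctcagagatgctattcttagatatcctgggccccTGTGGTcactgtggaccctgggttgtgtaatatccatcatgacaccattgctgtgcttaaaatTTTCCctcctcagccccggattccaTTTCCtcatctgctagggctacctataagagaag
Xcl1: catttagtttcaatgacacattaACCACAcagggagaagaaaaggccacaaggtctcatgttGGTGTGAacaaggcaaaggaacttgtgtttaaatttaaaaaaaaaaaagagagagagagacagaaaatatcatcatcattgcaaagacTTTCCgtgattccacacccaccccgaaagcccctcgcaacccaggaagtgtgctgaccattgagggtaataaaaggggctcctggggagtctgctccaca

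Both strands were searched for 5 motifs of factors known in T cells. The core bound by NFAT, the factor released by calcium signalling, was written GGAAA, or its reverse complement. It matched at 59 and 34 bases before the start of Ccl3 and at 100 before the start of Xcl1, and 55.6% of the 32851 mouse promoters of the same length held it. The RUNX motif TGTGGT matched once in each, 122 bases before Ccl3 and 227 before Xcl1, and was held by 14.0% of promoters. The T-box motif GGTGTGA, bound by T-bet and Eomes, matched once in Xcl1, 188 bases before the start, and was held by 3.33% of promoters. The AP-1 motif TGANTCA and the CRE motif TGACGTCA, held by 6.75% and 1.55% of promoters, had no match in either window. No match overlapped another, and a match describes letters and not binding.

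Depth lay between 7477544 and 11169003 reads per library, and 1 read was worth 0.554 to 1.04 of the deposited normalised level. The sorted lineages followed their labels: Cd8a in the CD4+ libraries was 0.00911% to 0.558% of its mean in CD8+ cells of the same organ. The marker Cd8b1 was at 43.7 to 110 in the CD4+ libraries, against means of 15091 and 16570 in kidney and spleen CD8+ cells. Replicates agreed least in kidney CD4+ cells, with r = 0.772 across genes (which are not independent replicates) against 0.883 to 0.958 in the other groups. The T cell markers summed to levels of 92089 to 146215 in every library. Markers of other cells differed by organ. The 13 proximal tubule genes summed to 7897 to 30345 in kidney and 0 to 8.87 in spleen, the 12 neutrophil genes to 0 to 62.0 in kidney and 3678 to 9393 in spleen, and the 9 erythroid genes in the table to 13.6 to 424 and 13524 to 25596. In bulk libraries of this kind, fewer cells that transcribe a gene and less RNA per cell cannot be told apart.

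The chemokine transcripts were among the most abundant of these T cells. Ccl5 was the most abundant gene of all in each of the 4 CD8+ libraries. It took 6.45% of the reads (95% Wilson interval 6.44 to 6.47) and 4.34% (4.33 to 4.35) in kidney CD8+ cells, and 3.93% (3.92 to 3.94) and 3.26% (3.25 to 3.27) in spleen CD8+ cells. In CD4+ cells Ccl5 took 0.679% (0.673 to 0.684) and 1.98% (1.97 to 1.99) of the reads in kidney and 1.43% (1.42 to 1.43) and 1.91% (1.90 to 1.92) in spleen, and ranked 11, 3, 3 and 2 in the same order. Ubb, a ubiquitin gene, led all 4 CD4+ libraries. All 4 chemokines together took up to 7.98% of the reads, in kidney CD8+ replicate 1, and as little as 0.947% (0.941 to 0.954), in kidney CD4+ replicate 1. These intervals cover counting error only, since amplified reads without molecular identifiers are not independent molecules.

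Compared per kilobase of transcript, the order Ccl5, Ccl4, Ccl3, Xcl1 held in all 8 libraries. In kidney CD8+ cells the levels per kilobase were 621103 ± 190557 for Ccl5, 121813 ± 36165 for Ccl4, 20103 ± 6963 for Ccl3 and 4751 ± 1803 for Xcl1 (SD, n = 2 as for all groups below). In spleen CD4+ cells they were 158268 ± 36870, 17150 ± 960, 2731 ± 258 and 798 ± 198 in the same order. Each step in this order was larger than the SDs of both genes, except that from Ccl5 (147184 ± 118204) to Ccl4 (35072 ± 22028) in kidney CD4+ cells.

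Ccl3 separated the organs. Its normalised level was 3423 and 8393 in kidney CD4+ cells, 19170 and 11627 in kidney CD8+ cells, 1953 and 2232 in spleen CD4+ cells and 2951 and 2051 in spleen CD8+ cells. All 4 kidney libraries lay above all 4 spleen libraries, an arrangement shown by 5.84% of the 10845 genes tested. Group means were 5908 ± 3514, 15399 ± 5334, 2092 ± 197 and 2501 ± 637. By their means the groups stood in the order kidney CD8+, kidney CD4+, spleen CD8+ and spleen CD4+. The kidney groups did not overlap each other, and the spleen groups did. How many of all genes tested had both kidney CD8+ libraries above both kidney CD4+ libraries was not counted. In spleen, 19.8% of all genes tested had both CD8+ libraries above both CD4+ libraries, so such separation between pairs of libraries was common there.

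Ccl4, the close relative of Ccl3, had levels of 12867 and 33428 in kidney CD4+ cells and 97274 and 63519 in kidney CD8+ cells. In spleen they were 10871 and 11767 in CD4+ cells and 24930 and 17744 in CD8+ cells. Kidney CD8+ libraries were highest and spleen CD4+ libraries lowest. Kidney CD4+ replicate 1 fell below both spleen CD8+ libraries, so the organs overlapped, and so did the middle groups of the order (23148 ± 14539 in kidney CD4+ and 21337 ± 5081 in spleen CD8+ cells).

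Ccl5 separated the lineages instead. Its level was 42486 and 154152 in kidney CD4+ cells, 504906 and 324888 in kidney CD8+ cells, 88307 and 123138 in spleen CD4+ cells and 284947 and 235329 in spleen CD8+ cells. All 4 CD8+ libraries lay above all 4 CD4+ libraries, an arrangement shown by 2.2% of the genes tested. Kidney and spleen CD4+ cells overlapped entirely, the kidney pair enclosing the spleen pair (98319 ± 78960 against 105723 ± 24630).

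Xcl1 was the least abundant of the 4, with the pattern of Ccl4. Its level was 511 and 1241 in kidney CD4+ cells, 3152 and 1818 in kidney CD8+ cells, 344 and 491 in spleen CD4+ cells and 700 and 524 in spleen CD8+ cells. The kidney CD8+ libraries were highest, spleen CD4+ lowest, and kidney CD4+ replicate 1 lay below both spleen CD8+ libraries. Group means were 876 ± 516, 2485 ± 943, 418 ± 104 and 612 ± 124.

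**Figure D1:**
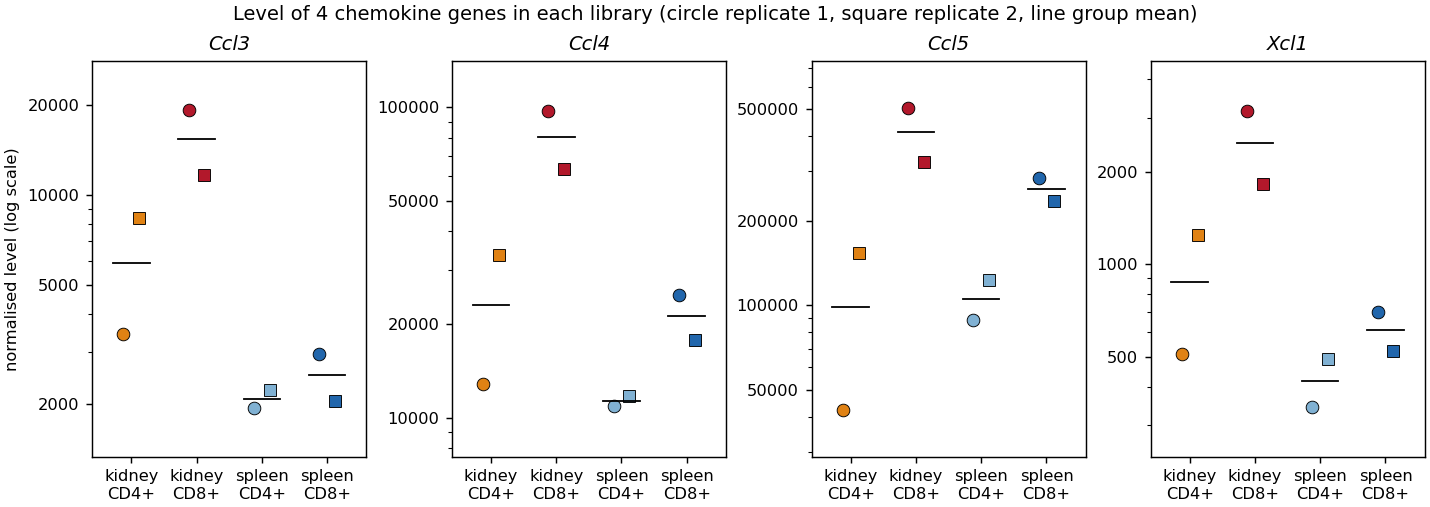
Normalised level of each chemokine gene (y axis, log scale) in the 8 libraries by group (x axis), with circles for replicate 1, squares for replicate 2 and a line at the group mean. For Ccl3 the 4 kidney libraries sit above the 4 spleen libraries, and for Ccl5 the 4 CD8+ libraries sit above the 4 CD4+ libraries.

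Kidney and spleen were compared first, to ask how T cells of the inflamed organ differ from those of a lymphoid organ. In CD8+ T cells, Ccl3 rose 6.07-fold in kidney (log2 fold change 2.60 ± 0.50 SE, limma adjusted p = 0.0453). It was the 1 called gene of the 4, where 1.21% of all genes tested were called higher in kidney at an adjusted p below 0.05. Xcl1 had a log2 fold change of 1.98 ± 0.50 (3.95-fold, adjusted p = 0.125) and Ccl4 one of 1.90 ± 0.55 (3.74-fold, adjusted p = 0.194) in limma's test, and neither passed. Ccl5 had 0.65 ± 0.76 (adjusted p = 0.847), with a 95% interval of -1.08 to 2.37 that allows a fall as well as a rise. Both kidney CD8+ libraries lay above both spleen CD8+ libraries for all 4 genes, as they did for 26.7% of all genes tested. The median log2 fold change of the 4 was 1.94, beside 0 over all genes tested.

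The kidney CD8+ result for Ccl3 sat close to the threshold. All 8 libraries shared 1 estimate of the spread, which was smaller when the kidney CD4+ pair was left out. Without both kidney CD4+ libraries, an alternative chosen after seeing the data, the SEs were 0.26 for Ccl3, 0.24 for Ccl4 and 0.30 for Xcl1, and limma's adjusted p was 0.00100, 0.00283 and 0.00609, with Ccl5 at 0.192. In that fit 4.4% of all genes tested were called higher in kidney CD8+ cells. Without any 1 of the other libraries the call for Ccl3 was lost, with its log2 fold change between 2.24 and 2.96. The adjusted p of Ccl3 was 0.349 and 0.112 without kidney CD8+ replicate 1 or 2, 0.152 without either spleen CD4+ replicate, and 0.278 and 0.447 without spleen CD8+ replicate 1 or 2. On recovered reads edgeR called 0 of the 4, beside 0.682% of all genes called higher, and DESeq2 called Ccl3, Ccl4 (adjusted p = 0.0281) and Xcl1 (adjusted p = 0.0247), beside 3.3%. The direction of Ccl3 was the same in all 22 alternatives, but several of them left its log2 fold change at 2.60 and could not change its direction. The lowest adjusted p of Ccl3 among the 22 was 4.76e-04, from DESeq2.

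In CD4+ T cells none of the 4 genes passed (0 called, where 0.802% of all genes tested were called higher in kidney). limma gave Ccl3 a log2 fold change of 1.36 ± 0.50 (adjusted p = 0.403), Xcl1 0.95 ± 0.50 (0.660), Ccl4 0.87 ± 0.55 (0.725) and Ccl5 -0.37 ± 0.76 (0.932). Both kidney CD4+ libraries lay above both spleen CD4+ libraries for 3 of the 4 genes, all but Ccl5, as they did for 16.3% of all genes tested. At an unadjusted p below 0.05 there was 1 of the 4, Ccl3, in limma (where 5.45% of all genes lay in the higher direction) and in edgeR and 2, Ccl3 and Ccl4, in DESeq2, which also called 0 after adjustment. The values moved with the kidney CD4+ pair. Without kidney CD4+ replicate 1, Ccl3, Ccl4 and Xcl1 had log2 fold changes of 2.01, 1.56 and 1.59 with limma's adjusted p at 0.00259, 0.00554 and 0.0143, and Ccl5 turned to 0.56 (adjusted p = 0.268), where 7.41% of all genes tested were called higher. Without kidney CD4+ replicate 2 none was called by limma, at 0.71 for Ccl3 (adjusted p = 0.245), 0.19 for Ccl4 (0.762), 0.31 for Xcl1 (0.678) and -1.30 for Ccl5 (0.0708).

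Averaged over both lineages, Ccl3 rose 3.95-fold in kidney (log2 fold change 1.98 ± 0.35, limma adjusted p = 0.0186). It was again the 1 called gene of 4, beside 2.71% of all genes tested called higher. Xcl1 had 1.47 ± 0.35 (adjusted p = 0.0727) and Ccl4 1.39 ± 0.39 (adjusted p = 0.131) by limma. Ccl5 had 0.14 ± 0.53 (adjusted p = 0.928), with a 95% interval of -1.08 to 1.36. Leaving out a kidney CD8+ library or a spleen library lost the call for Ccl3, at adjusted p of 0.110 and 0.0571 without kidney CD8+ replicate 1 or 2, 0.126 and 0.116 without spleen CD4+ replicate 1 or 2, and 0.0881 and 0.136 without spleen CD8+ replicate 1 or 2. The log2 fold change of Ccl3 lay between 1.80 and 2.16 in these 6 fits. DESeq2 also called Ccl4 (adjusted p = 0.00488) and Xcl1 (adjusted p = 0.00476), beside 5.49% of all genes called higher.

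CD8+ and CD4+ T cells were then compared within each organ. All 4 chemokines had higher means in CD8+ cells in both organs, and none passed limma's test. In kidney the log2 fold change was 2.32 ± 0.76 for Ccl5 (adjusted p = 0.410), 1.92 ± 0.55 for Ccl4 (0.342), 1.59 ± 0.50 for Xcl1 (0.400) and 1.48 ± 0.50 for Ccl3 (0.431). All 4 had an unadjusted p below 0.05 in limma, edgeR and DESeq2, where limma had 3.78% of all genes in the higher direction, and 0.12% of all genes were called higher after adjustment. edgeR and DESeq2 also called 0 of the 4. Without kidney CD4+ replicate 2 limma called all 4, at log2 fold changes of 2.12 to 3.25, beside 6.33% of all genes called higher. Without replicate 1 it called Ccl4 (1.23) and Ccl5 (1.39), beside 9.1% of all genes.

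In spleen the log2 fold change between CD8+ and CD4+ cells was 1.31 ± 0.76 for Ccl5 (2.48-fold, limma adjusted p = 0.998), 0.89 ± 0.55 for Ccl4, 0.56 ± 0.50 for Xcl1 and 0.24 ± 0.50 for Ccl3 (adjusted p = 1 for each). No member was called, beside 0.129% of all genes called higher, and none had an unadjusted p below 0.05 in limma (2.03% of all genes in that direction) or edgeR. DESeq2 called 0 and had Ccl5 below 0.05 before adjustment. Without the kidney CD4+ libraries in the fit, limma called Ccl5 (adjusted p = 0.0385), beside 1.2% of all genes called higher. Both spleen CD8+ libraries exceeded both spleen CD4+ libraries for 3 of the 4 genes, the exception being Ccl3, beside 19.8% of all genes.

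Averaged over both organs, the CD8+ excess was 1.82 ± 0.53 on the log2 scale for Ccl5 (3.53-fold), 1.41 ± 0.39 for Ccl4, 1.07 ± 0.35 for Xcl1 and 0.86 ± 0.35 for Ccl3. limma's adjusted p was 0.224, 0.196, 0.298 and 0.463, so none was called, beside 0.443% of all genes called higher. All 4 had an unadjusted p below 0.05, as did 3.68% of all genes in the higher direction, edgeR called 0, and DESeq2 called Ccl4 (adjusted p = 0.0283) and Ccl5 (adjusted p = 0.0121), beside 1.35% of all genes called higher.

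Whether the organ difference depended on the lineage was tested as an interaction. The organ difference in CD8+ cells minus that in CD4+ cells was 1.24 ± 0.71 on the log2 scale for Ccl3, 1.03 ± 0.78 for Ccl4, 1.01 ± 1.07 for Ccl5 and 1.03 ± 0.71 for Xcl1, with limma's adjusted p at 0.999 for each. Of all genes tested 0% were called by limma, and none of the 4 members had an unadjusted p below 0.05 in limma, edgeR or DESeq2. The intervals are wide, from -0.37 to 2.85 for Ccl3, so the size of any such dependence was not resolved with 2 libraries a group.

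**Figure D2:**
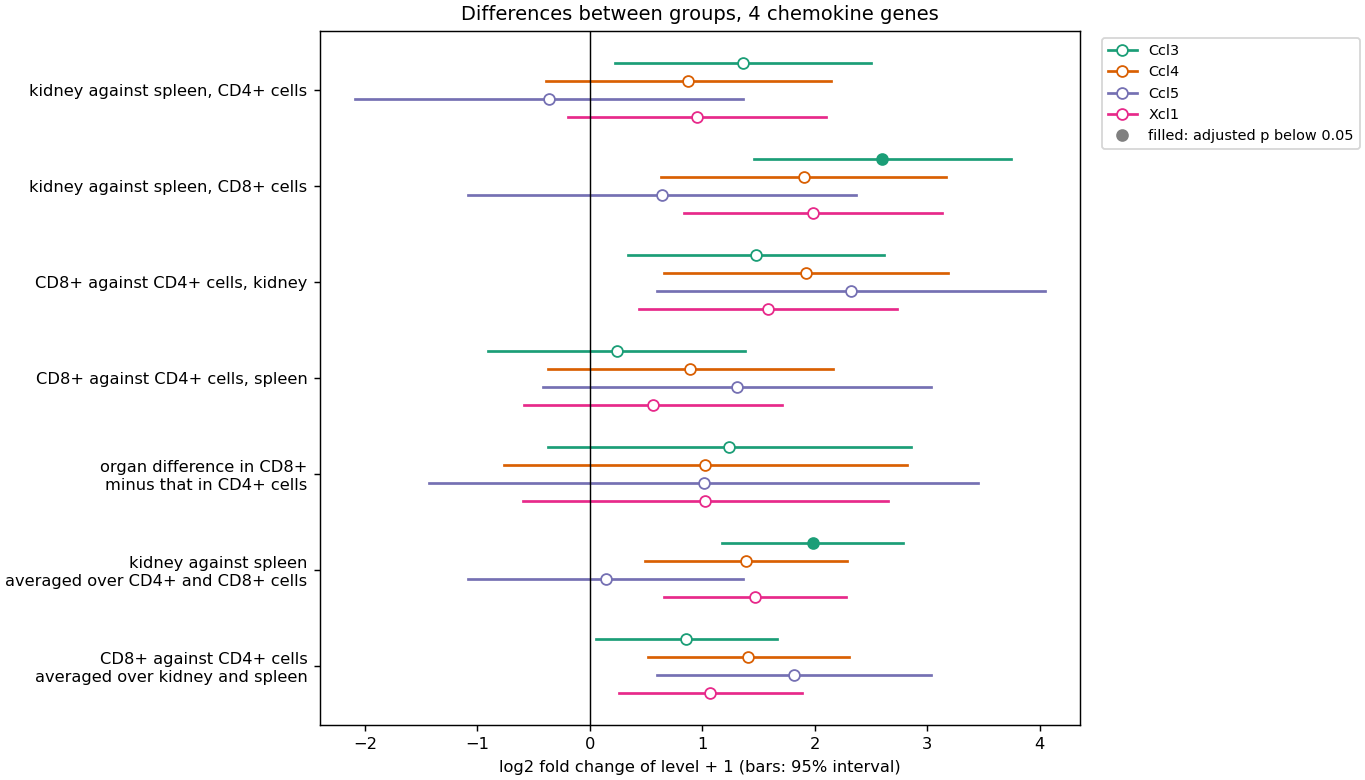
Log2 fold change (x axis, of level + 1) of the 4 chemokine genes in each of 7 comparisons (y axis), as points with 95% intervals from limma, filled where the adjusted p is below 0.05. Ccl3 is filled in the CD8+ organ comparison and in the averaged organ comparison, and the intervals of Ccl5 are the widest.

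The 2 kidney CD4+ libraries differed for all 4 genes in the same direction, replicate 2 being 2.45-fold higher for Ccl3, 2.60-fold for Ccl4, 3.63-fold for Ccl5 and 2.43-fold for Xcl1. On the log2 scale this is 1.29, 1.38, 1.86 and 1.28. In the other 3 groups the replicates of these genes differed by at most 1.73-fold. Short transcripts as a class moved the same way in this pair. The transcripts of the 4 members are 523 to 766 nt long, and over 539 genes of 501 to 1000 nt the median log2 difference between the kidney CD4+ replicates was 1.35 (quartiles 0.87 to 1.69), against -1.05 for 2001 to 2500 nt. Ccl5 lay above the upper quartile of its length class and the other 3 inside the quartiles. The CD3 chain genes were split in this pair, Cd3e being at 5456 in replicate 1 and 637 in replicate 2, Cd3d at 10077 and 26729, and Cd3g at 24538 and 48406.

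Levels were therefore also centred within each library by transcript length class, after the data had been seen. The centred fit left smaller errors. In CD8+ cells it gave kidney-against-spleen log2 differences of 2.31 ± 0.27 for Ccl3 (limma adjusted p = 0.00539), 1.61 ± 0.25 for Ccl4 (0.0153) and 1.69 ± 0.31 for Xcl1 (0.0356), where 1.51% of all genes were called higher. Between lineages within kidney it gave 2.12 ± 0.29 for Ccl5 (0.0278) and 1.72 ± 0.25 for Ccl4 (0.0337), where 0.265% were called higher. Averaged over lineages it called Ccl3 (1.74), Ccl4 (1.15) and Xcl1 (1.23) between organs, beside 3.18% of all genes, and averaged over organs Ccl4 (1.27) and Ccl5 (1.68) between lineages, beside 0.619%. The organ difference of Ccl5 averaged over lineages was then -0.10 ± 0.21 (adjusted p = 0.851), of the other sign than without centring.

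**Figure D3:**
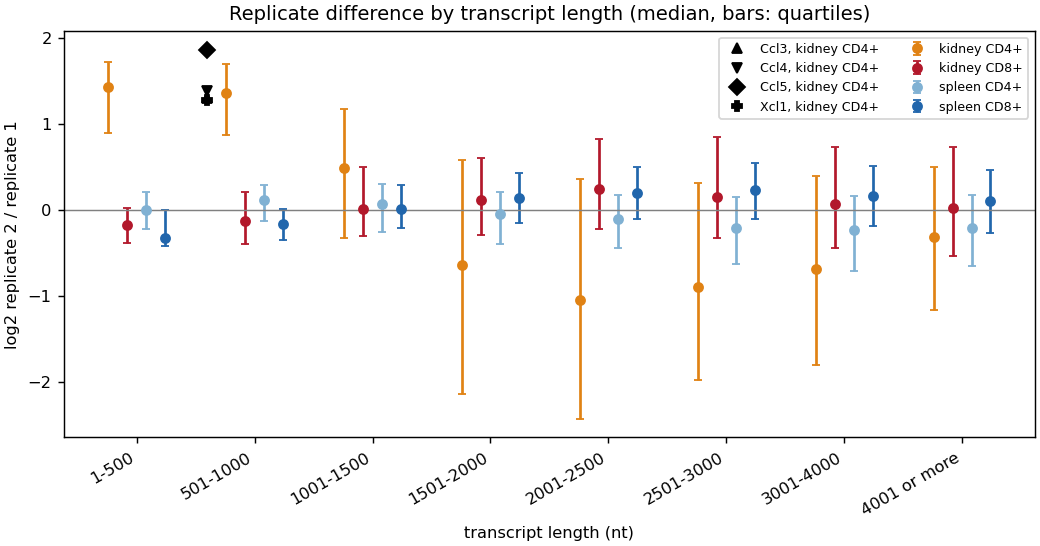
Log2 ratio of replicate 2 to replicate 1 (y axis) by transcript length class in nt (x axis), as the median and quartiles over genes for each group, with black symbols for the 4 chemokine genes in kidney CD4+ cells. The kidney CD4+ medians run from 1.43 for the shortest class to -1.05 at 2001 to 2500 nt, and the 4 chemokine genes lie between 1.28 and 1.86.

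Because all 4 transcripts are short and Ccl5 is abundant everywhere, the other 3 were also expressed as a share of Ccl5 in the same library, which needs no scaling between libraries. This was chosen after seeing the levels. Ccl3 was 8.06% and 5.44% of Ccl5 in kidney CD4+ cells, 3.80% and 3.58% in kidney CD8+ cells, 2.21% and 1.81% in spleen CD4+ cells and 1.04% and 0.872% in spleen CD8+ cells. The 4 groups did not overlap, and within each lineage the kidney share was the higher. Counting error was small beside this, the 95% Wilson interval of the lowest share being 0.835% to 0.909%.

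Ccl4 was 30.3% and 21.7% of Ccl5 in kidney CD4+ cells, 19.3% and 19.6% in kidney CD8+ cells, 12.3% and 9.56% in spleen CD4+ cells and 8.75% and 7.54% in spleen CD8+ cells. For Xcl1 the shares were 1.20% and 0.805%, 0.624% and 0.559%, 0.390% and 0.399%, and 0.246% and 0.223% in the same order. Both genes had the group order seen for Ccl3 without overlap, all 3 being divided by the same Ccl5 level. How many of all genes show this order of 4 groups relative to Ccl5 was not counted. In the kidney CD4+ pair, replicate 2 had the lower share for all 3 genes, although it had the higher level for each.

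Every kidney share exceeded every spleen share for Ccl3, Ccl4 and Xcl1, as it did for 2.32% of all genes expressed relative to Ccl5. The kidney shares were 3.58-fold, 2.38-fold and 2.51-fold those of spleen for Ccl3, Ccl4 and Xcl1 (means of log2 ratios, n = 4 against 4). The 2-sided exact permutation p was 0.0286 for each, the smallest that 4 libraries against 4 can give, and 0.0857 after Benjamini-Hochberg adjustment over 12 tests of ratios among the members, which does not pass. All exact permutations here moved the 8 libraries freely, so organ tests did not keep lineages apart, nor lineage tests organs. Within 1 lineage, 2 libraries against 2 can give no exact permutation p below 0.333. In limma's fit of all genes relative to Ccl5, averaged over lineages, Ccl3 rose by 1.84 ± 0.32 on the log2 scale (adjusted p = 0.0210) and Ccl4 by 1.25 ± 0.23 (adjusted p = 0.0266), beside 1.41% of all genes called higher. Xcl1 had 1.33 ± 0.43 (adjusted p = 0.321). Per lineage the values were 1.73 and 1.96 for Ccl3, 1.24 and 1.26 for Ccl4 and 1.32 and 1.34 for Xcl1 in CD4+ and CD8+ cells, with interactions of 0.23 ± 0.64, 0.02 ± 0.46 and 0.02 ± 0.86 (adjusted p of 0.976 or above).

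The calls relative to Ccl5 depended on single libraries. For Ccl3 the adjusted p was 0.0743 and 0.0855 without kidney CD8+ replicate 1 or 2, 0.125 and 0.196 without spleen CD4+ replicate 1 or 2, and 0.161 and 0.205 without spleen CD8+ replicate 1 or 2. For Ccl4 it was 0.0554, 0.0760, 0.104, 0.216, 0.155 and 0.214 in the same order. Xcl1 was called without kidney CD4+ replicate 1 (0.00894) or replicate 2 (0.00567). The log2 difference stayed between 1.70 and 1.98 for Ccl3, 1.13 and 1.37 for Ccl4 and 1.18 and 1.47 for Xcl1.

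**Figure D4:**
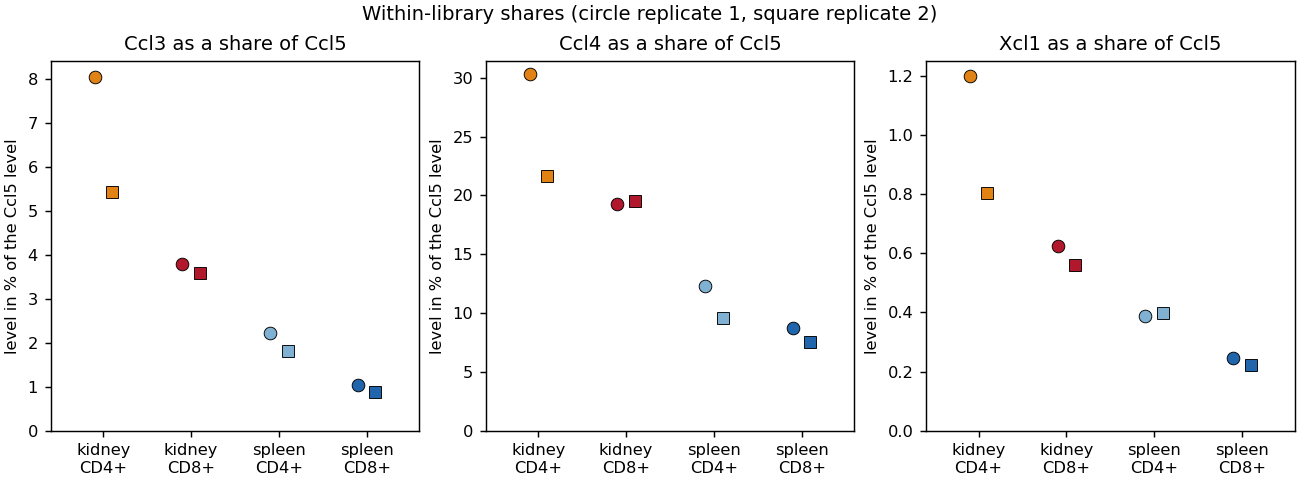
Level of Ccl3, Ccl4 and Xcl1 as a percentage of the Ccl5 level of the same library (y axes from 0, linear) by group (x axis), circles for replicate 1 and squares for replicate 2. For each gene the shares fall from kidney CD4+ to kidney CD8+, spleen CD4+ and spleen CD8+ cells with no overlap between groups, for Ccl3 from 8.06% to 0.872%.

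CD8+ cells had lower shares of Ccl5 than CD4+ cells of the same organ for all 3 genes. Over both organs the lineages overlapped, and the exact permutation p was 0.229 for Ccl3, 0.457 for Ccl4 and 0.229 for Xcl1. In limma's fit relative to Ccl5, Ccl3 was lower in CD8+ cells (log2 difference -0.96 ± 0.32 averaged over organs, adjusted p = 0.0466), as were 35.9% of all genes tested, Ccl5 itself being the reference. The ratio of Ccl4 to Xcl1 overlapped between the organs, with Ccl4 at 25.2 to 34.9 times Xcl1 in kidney and at most 35.6 times in spleen (log2 difference -0.08, exact permutation p = 0.714). Ccl3 was 6.08 to 6.76 times Xcl1 in kidney and 3.91 to 5.67 times in spleen, with no overlap (log2 difference 0.51, exact permutation p = 0.0286, adjusted 0.0857).

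Across the 8 libraries, the log2 levels of Ccl3, Ccl4 and Xcl1 followed each other (r = 0.97 for Ccl3 with Xcl1, 0.98 for Ccl4 with Xcl1 and 0.94 for Ccl3 with Ccl4). Ccl5 followed them less, at r = 0.81 with Ccl4, 0.73 with Xcl1 and 0.57 with Ccl3. The 8 points fall into 4 groups and share library depth and the length-related difference of the kidney CD4+ pair, so these values describe these libraries and no p is given. Of 9877 genes compared with each member, the other members left out, the 5 most alike to Ccl3 were AA467197 (0.97), Plekhb1 (0.97), Ifng, the gene of interferon gamma (0.97), Sorl1 (0.97) and Lgals3 (0.97). Ifng reached 0.999 over the 7 libraries without kidney CD4+ replicate 2. That replicate was set by hand and not by a computed measure. Its level was 4545 and 5586 in kidney CD4+, 13296 and 9958 in kidney CD8+, 3275 and 3582 in spleen CD4+ and 4023 and 3522 in spleen CD8+ cells.

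With members again left out, Ifng was also among the 5 genes most alike to Xcl1 (0.96), with Hist1h4d (0.97), Sorl1 (0.97), Plekhb1 (0.97) and Nbeal2 (0.96). For Ccl4 the 5 genes outside the members were Hist1h4d (0.98), Thy1 (0.97), Fnbp4 (0.96), Hcst (0.95) and Lpp (0.95). For Ccl5 they were Dpm3 (0.98), Aimp1 (0.98), H2afj (0.97), Pdcd5 (0.97) and 4930486L24Rik (0.97), none of which was on the lists of the other 3.

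Of 36 other mouse chemokine ligand genes, 21 were in the table and 17 were tested. Their levels summed to 177 to 2537 per library, against 59287 to 624502 for the members, most of which was Ccl5. In kidney CD4+ replicate 1, Ccl8 (679) was above Xcl1 (511). In CD4+ cells 3 rose in kidney: Ccl8, which draws in monocytes and T cells, at 679 and 917 against 51.0 and 49.2 (limma adjusted p = 0.0153), Cxcl16, the ligand of Cxcr6, at 162 and 88.5 against 0 and 0 (adjusted p = 0.0116), and Ccl12, which draws in monocytes, at 86.7 and 165 against 0 and 0 (adjusted p = 0.0175). In CD8+ cells 2 rose, Ccl8 and Ccl12, at adjusted p of 0.00783 and 0.0418. Averaged over lineages 4 rose in kidney, Ccl7 being the fourth (adjusted p = 0.0176), and between lineages Ccl8 was lower in CD8+ cells (adjusted p = 0.0381). Of all genes tested, 0.802% were called higher in kidney in CD4+ cells, 1.21% in CD8+ cells and 2.71% on average. None of the ligands fell in kidney, as 0.341% of all genes tested did in CD8+ cells and 0.664% on average. In the averaged lineage comparison 0.858% of all genes were lower in CD8+ cells. The median log2 fold change of the 17 was 2.08 in CD4+ and 1.33 in CD8+ cells, beside -0.08 and 0 over all genes tested, and was the same with genes at 0 reads set to their bound of 3 reads over a group.

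By its mean over the 8 libraries Ccl8 was the highest of these ligands, although Cxcl10 was above it in all 4 spleen libraries and in kidney CD8+ replicate 2. Within kidney the median log2 fold change of CD8+ against CD4+ cells was -1.85 over the 17 ligands and 1.75 over the 4 members. Of the neighbours of Ccl3, Ccl4 and Ccl5 within 150 kb on chromosome 11, the chemokine gene Ccl6 had levels of 28.5 to 282 and Ccl9 0 to 118, and no neighbour other than a member was called in any comparison. No other gene of the table lay within that distance of Xcl1.

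**Figure D5:**
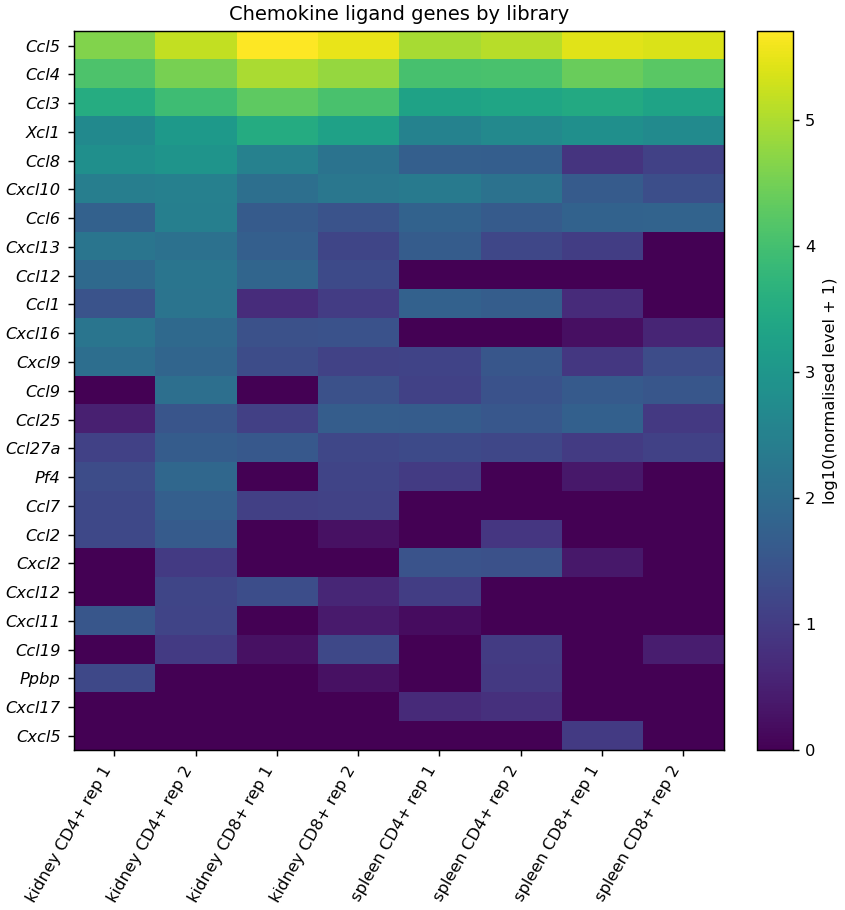
Heat map of log10(normalised level + 1) for the 25 chemokine ligand genes of the table (rows, ordered by mean level) in the 8 libraries (columns). Ccl5, Ccl4, Ccl3 and Xcl1 form the top 4 rows, and Ccl8 leads the rest by mean level, with its highest levels in the kidney CD4+ libraries.

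Among the receptors listed for the 4 chemokines, Ccr1, Ccr3, Ccr4 and Xcr1 were low, at 69.1 or less in every library, and Ccrl2 was higher. Of 10 listed, 6 were in the table and tested, and 0 passed in either organ comparison by limma. Ccr1, a receptor of Ccl3 and Ccl5, had levels of 0 to 67.7, Ccr3 3.37 to 32.1 and Xcr1, the Xcl1 receptor, 11.6 to 69.1. Ccrl2, an atypical receptor that binds without signalling, had 174 to 1147. Ccr4, best known as the receptor of other CC chemokines, was the 1 receptor called, lower in CD8+ than in CD4+ cells averaged over organs (0 in all 4 CD8+ libraries, 6.24 to 67.0 in CD4+ libraries, adjusted p = 0.0395).

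Effector genes that T cells transcribe beside these chemokines were taken as a list of 14, all tested. Csf2, which encodes the growth factor GM-CSF, rose in kidney in CD4+ cells (74.7 and 74.9 against 1.66 and 0, limma adjusted p = 0.0205) and in CD8+ cells (80.6 and 123 against 6.06 and 2.86, adjusted p = 0.0459). Averaged over lineages 3 rose, Csf2, the cathepsin gene Ctsw (adjusted p = 0.0167) and Tnf (adjusted p = 0.0358), and 0 fell. Of all genes tested, 2.71% were called higher in kidney and 0.664% lower in that comparison. Ifng had an averaged log2 fold change of 1.08 ± 0.25 (adjusted p = 0.0575). In CD8+ against CD4+ cells averaged over organs, Gzma, Gzmb, Ctsw and Gzmm, whose products are proteases of cytotoxic granules, rose and the lymphotoxin gene Lta fell. Of all genes tested, 0.443% were called higher in CD8+ cells and 0.858% lower in that comparison. The list's median log2 fold change was 0.28 in CD4+ and 1.03 in CD8+ cells between organs, and 1.41 in kidney and 0.85 in spleen between lineages. Over all genes tested the medians were -0.08, 0, 0.03 and -0.05 in the same order.

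Among 32 transcription factors and RNA-binding proteins known to act on such genes, all tested, 3 passed in CD8+ cells between organs. In that comparison 1.21% of all genes tested were called higher in kidney and 0.341% lower. Nr4a3 (473 and 443 in kidney against 22.2 and 3.82 in spleen, limma adjusted p = 0.0130) and Nr4a2 (424 and 411 against 36.4 and 41.1, adjusted p = 0.0136), nuclear receptors induced by T cell receptor signals, rose. Tcf7, a factor of naive and memory T cells, fell (337 and 475 against 1764 and 2058, adjusted p = 0.0284). Nr4a2, Nr4a3 and Tcf7 also passed in the averaged organ comparison, and 0 of 32 passed in CD4+ cells or between lineages by limma. Of the T-box factors, Eomes had higher means in CD8+ cells (log2 fold change 1.17 ± 0.24 averaged over organs, adjusted p = 0.0708), and Tbx21, the gene of T-bet, had 1.40 ± 0.38 in kidney against spleen (adjusted p = 0.112).

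Macrophages and natural killer cells also make these chemokines, so their markers are given beside the results. The 10 macrophage genes in the table (of 12 listed) summed to 6548 to 6969 in kidney CD4+, 1817 to 2417 in kidney CD8+, 1690 to 2290 in spleen CD4+ and 850 to 1460 in spleen CD8+ libraries. C1qb, a complement gene of macrophages, rose in kidney in both lineages (limma adjusted p = 0.0186 in CD4+ and 0.0189 in CD8+ cells). C1qa also rose in CD8+ cells (adjusted p = 0.0335), and C1qa, C1qb and C1qc, 3 of the 10, rose in the averaged organ comparison. Of all genes tested, 2.71% were called higher in kidney in the averaged comparison. The sums were higher in kidney within each lineage, as the means of Ccl3, Ccl4 and Xcl1 were. Within kidney the sums were lower in the CD8+ libraries, where the 4 members had higher means. In the kidney CD8+ libraries Lyz2 was at 1235 and 921, C1qb at 429 and 356, C1qa at 122 and 57.8, Adgre1 at 1.70 and 4.63 and Csf1r at 0.849 and 2.31. Cd68, another of the 10, was at 485 and 389 in the same libraries. Its mean was 371 in kidney CD4+, 539 in spleen CD4+, 437 in kidney CD8+ and 357 in spleen CD8+ cells. It ran against the sums between organs in CD4+ cells and between lineages in kidney. Between organs in CD8+ cells and between lineages in spleen it ran with them. By log2 fold change, 9 of the 10 were higher in kidney than in spleen CD4+ cells, beside 45.6% of all genes tested. In CD8+ cells 10 of the 10 were higher in kidney, beside 49.8% of all genes tested. Within kidney, 2 of the 10 were higher in CD8+ than in CD4+ cells, beside 51.5%. Adgre1 and Mrc1 were at 0 in both spleen CD8+ libraries. The part of these cells in the organ differences was not tested.

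Natural killer markers were ambiguous, since several of the 9 in the table, Gzma, Eomes and Klrc2 among them, are also genes of CD8+ T cells. They summed to 1816 to 2895 in kidney CD4+, 8627 to 10073 in kidney CD8+, 1098 to 1120 in spleen CD4+ and 8371 to 8977 in spleen CD8+ libraries. Of the 8 that were tested, Fcer1g, an adaptor of activating receptors, rose in kidney CD8+ cells (1125 and 455 against 61.3 and 66.8, limma adjusted p = 0.0199), as Ccl3 did. In that comparison 5 of the 8 had a positive log2 fold change. Klrb1c, Eomes and Gzma had -1.44, -0.21 and -0.07. Fcer1g (adjusted p = 0.00513) and Tyrobp, another adaptor (adjusted p = 0.0247), rose in the averaged organ comparison. Ncr1, which marks natural killer cells more narrowly, was at 0 in 5 of 8 libraries, among them kidney CD8+ replicate 2, and at 113 in kidney CD4+, 24.6 in kidney CD8+ and 15.5 in spleen CD4+ replicate 1. The part of natural killer cells in the results was not tested. CD8+ cells in the CD4+ sorts were measured by Cd8a. Cd8a in the CD4+ libraries was 0.558% and 0.0282% of its CD8+ mean in kidney and 0.00911% and 0.0213% in spleen, while Ccl5 was 10.2% and 37.2%, and 33.9% and 47.3%, of its CD8+ mean. In all 4 CD4+ libraries the percentage for Ccl5 was above that for Cd8a. The part of CD8+ cells in the chemokine levels of the CD4+ libraries was not tested. Cd8b1 was at 62.0 and 43.7 in kidney and 110 and 81.1 in spleen CD4+ libraries, beside CD8+ means of 15091 and 16570.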

How the data were processed

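RNA from 8 libraries of sorted T cells was amplified with SMART-Seq v4, which does not mark strand, per the labels' protocols. Reads were aligned to mm9; STAR 2.5.3 and TopHat2 2.1.0 are listed per the submitters' processing notes. How reads were counted, on which annotation, and how counts were normalised is not given in the sources used here. Normalised signal for 13341 gene symbols was deposited by the authors in 1 table, in which each library's values are whole multiples of 1 step (100% of values, tolerance 1e-06 reads). Dividing the deposited values by that step recovered whole read counts, from 7477544 to 11169003 per library.

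Testing was limited to the 10845 genes that reached a level of 10 in 2 or more libraries. The test was limma 3.58.1 (R 4.3.3) on log2(level + 1), with 4 group means over all 8 libraries, an intensity trend, 2-sided p-values and Benjamini-Hochberg adjustment over all tested genes in each of 7 comparisons. The threshold for a call was an adjusted p of 0.05. Because 1 is added before taking logs, the fold changes of low genes are understated. Fits with edgeR 4.0.16 and DESeq2 1.42.0 on recovered reads were alternatives, as were other scalings, filters and pseudocounts. limma and edgeR were tested on simulated data. Exact permutation tests used scipy 1.17.1.

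The members and gene lists were chosen with earlier results of these data known. Named were the 4 members, the receptors in the table (1 of them is not reported here), up to 4 called genes per list and comparison with the smallest adjusted p, the 5 genes most correlated with each member, and table genes within 150 kb of a member. Eomes, Tbx21, Gzmm, Ubb and Cxcl10 were named beyond that rule after their values were seen. So were the marker genes Cd8a, Cd8b1, Cd3d, Cd3e, Cd3g, Adgre1, Csf1r, Lyz2, Mrc1, Cd68, Ncr1 and Klrb1c. Transcript lengths and mm9 coordinates came from GENCODE vM1, where 9054 tested genes had a length. RefSeq promoters matched 2 of the 4 members.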

Additional observations from a re-analysis of the deposited data

How the results depend on the processing

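Over 584 alternative values of the 28 chemokine results, 578 kept their direction, and 25 of the 28 results kept it in every alternative. Filters, library weights, the replicate block, the fit without a trend and the compared libraries alone left the log2 fold changes unchanged. So did leaving out a library of a group not compared. Direction could not change in these alternatives, so the tally does not measure how stable it is. With 2 libraries a group, leaving 1 out leaves a lone library assumed to vary like the others. The cause of the changes below was not tested.

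Genes called number 104 and 168 between organs in CD4+ and CD8+ cells, 22 and 39 between lineages in kidney and spleen, 0 for the interaction (limma; 362 at an unadjusted p below 0.05, edgeR 0), and 366 and 141 for the organ and lineage averages. In that order DESeq2 called 352, 486, 215, 234, 12, 789 and 446. edgeR called 66 and 99 between organs in CD4+ and CD8+ cells. Library weights gave 31, 577, 12 and 666 for the first 4. The fit without an intensity trend gave 210 (CD4+ organs) and 64 (kidney lineages). The compared libraries alone gave 0 (CD4+ organs; limma, 719 at an unadjusted p below 0.05), 0 (kidney lineages; 423) and 142 (spleen lineages). For kidney and spleen lineages, a pseudocount of 5 gave 38 and 74, and centred length classes also gave 38, with 78. Spleen lineages gave 59 with median-of-ratios scaling. Leaving out both kidney CD4+ libraries gave 745 (CD8+ organs) and 325 (spleen lineages).

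Replicate numbers are shared between groups, but deviations of same-numbered libraries correlated at -0.15 to 0.06, so the numbers were not taken to pair them. With the replicate block, spleen lineages gave 19 genes, and Ccl3 between organs in CD8+ cells gave 2.60 (adjusted p = 0.0905).

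That Ccl3 result (2.60 on the log2 scale) was also not called with a pseudocount of 0.5 (2.60), no filter (2.60), TMM (2.56), median of ratios (2.59), edgeR (2.58) or no trend (2.60), at adjusted p of 0.0520 to 0.108. Without the trend its organ average was 1.98 (adjusted p = 0.0594). Ccl5 changed sign between organs in CD4+ cells under DESeq2 (0.012) and in the organ average with centred length classes (-0.10).

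Further calls appeared for Ccl4 and Xcl1 between organs in CD8+ cells under DESeq2 (1.90 and 2.01), library weights (1.90 and 1.98), length classes (1.61 and 1.69) and without both kidney CD4+ libraries (1.90 and 1.98). Their organ averages were called under DESeq2 (1.52 and 1.58), library weights (1.39 and 1.47) and length classes (1.15 and 1.23). Ccl4 and Ccl5 were called in the lineage average under DESeq2 (1.36 and 1.67) and length classes (1.27 and 1.68), and between kidney lineages with length classes (1.72 and 2.12). Ccl5 was called between spleen lineages with library weights (1.31) and without both kidney CD4+ libraries (1.31).

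Leaving out 1 library moved the number of genes called between 15 and 2331 (CD4+ organs), 21 and 737 (CD8+ organs), 3 and 1351 (kidney lineages), 2 and 323 (spleen lineages), 0 and 745 (interaction), 148 and 2749 (organ average) and 27 and 1312 (lineage average). Log2 differences of Ccl3, Ccl4, Ccl5 and Xcl1, in that order, ranged as follows. CD4+ organs: 0.71 to 2.01, 0.19 to 1.56, -1.30 to 0.56 and 0.31 to 1.59. CD8+ organs: 2.24 to 2.96, 1.59 to 2.21, 0.33 to 0.96 and 1.58 to 2.38. Kidney lineages: 0.83 to 2.12, 1.23 to 2.61, 1.39 to 3.25 and 0.95 to 2.23. Spleen lineages: -0.03 to 0.50, 0.65 to 1.14, 1.07 to 1.55 and 0.30 to 0.81. Interaction: 0.59 to 1.89, 0.34 to 1.72, 0.08 to 1.94 and 0.39 to 1.67. Organ average: 1.66 to 2.30, 1.04 to 1.73, -0.33 to 0.60 and 1.15 to 1.79. Lineage average: 0.53 to 1.18, 1.06 to 1.75, 1.35 to 2.28 and 0.75 to 1.39. Relative to Ccl5, Ccl3, Ccl4 and Xcl1 ranged over 1.44 to 2.01, 0.999 to 1.48 and 1.03 to 1.61 (CD4+ organs), 1.83 to 2.08, 1.15 to 1.36 and 1.26 to 1.41 (CD8+ organs), and 1.70 to 1.98, 1.13 to 1.37 and 1.18 to 1.47 (organ average). Signs changed for Ccl5 between organs in CD4+ cells without kidney CD4+ replicate 1 (0.56), for Ccl3 between spleen lineages without spleen CD8+ replicate 1 (-0.025), and for the Ccl5 organ average without kidney CD4+ replicate 2 (-0.33) or kidney CD8+ replicate 1 (-0.02).

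Depth of 7477544 to 11169003 reads leaves counting error small for these abundant genes, so the limit is 2 libraries a group, of which the kidney CD4+ pair differs most.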
